A study of Arabidopsis thaliana with 6 samples.

Results

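Histone genes encode the proteins that DNA is wound around, and 44 of them, of 27655 genes in each library, were followed by class and variant. They were taken by locus identifier: 9 H3 genes (5 H3.1, 3 H3.3 and the sperm H3 gene HTR10), 13 H2A, 11 H2B, 8 H4 and 3 H1 genes, and every identifier was found in all files. Of the 44 genes, 40 had enough counts to be tested. The cells were collected as male meiocytes of Arabidopsis thaliana, the anther cells that enter meiosis, from 2 genotypes with 3 libraries each. The mutant is knu-2, named for its allele of KNUCKLES (KNU), whose zinc finger protein is known for ending stem cell activity in the floral meristem, and the control is Ler, the laboratory strain Landsberg erecta. The labels name no strain background for knu-2 and no age of the plants. For both genotypes, anthers of stages 4 to 7 were pressed open with forceps, and RNA was taken from the cells that came out. No sort is named in the labels, so other anther cells may be present. The series' title links KNU to progress through the meiotic cell cycle, and the comparison asked how transcripts of these cells differ between knu-2 and Ler.

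An octamer of H2A, H2B, H3 and H4 makes the core of the nucleosome, and the linker histone H1 binds the DNA at its entry and exit. Canonical histones, H3.1 among them, are made mainly in S phase to package new DNA, whereas H3.3 is put into chromatin throughout the cell cycle. Of the H2A variants in Arabidopsis, H2A.W sits in heterochromatin, H2A.X is phosphorylated at DNA breaks and H2A.Z lies mostly in genes. Plant histone messengers carry poly(A) tails, so that a library made from polyadenylated RNA captures them.

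Library totals were between 18070435 and 27995200 counts. KNU had 13.8, 7.49 and 4.62 CPM (counts per 1000000 of the library total, scaled by the TMM method) in knu-2 replicates 1 to 3, against 75.1, 68.1 and 87.2 CPM in Ler replicates 1 to 3. All 10 meiocyte markers, MND1, ASY1 and SPO11-1 among them, were present in every library and lower in knu-2, against 24.4% of all genes tested. As a sum they reached 881 to 1629 CPM in knu-2 and 4119 to 5178 CPM in Ler. The list of tapetum markers, from the cell layer that feeds the meiocytes, held 10 genes. Of these, 7 were higher in knu-2 (CYP704B1, ACOS5 and AMS among them), against 23.6% of all genes tested. Their summed levels were 1200.0 to 1694 CPM in knu-2 and 293 to 348 CPM in Ler, while the tapetum genes MS1 and CYP703A2 were at 0 in every library. Of 6 pollen and sperm markers, 1 (GEX2, 16.7%) was lower in knu-2, against 24.4% of all genes tested, and none was called higher. Their sum was 18.5 to 23.7 CPM in knu-2 and 54.1 to 73.5 CPM in Ler, of which GEX2 averaged 6.95 and 46.8 CPM. ANX1, not called, went the other way, with 7.14 to 11.6 CPM in knu-2 and 5.64 to 6.46 CPM in Ler. None of 5 markers of photosynthetic tissue was called by edgeR, and none had an unadjusted p under 0.05, with sums of 730.2 to 1806 CPM in knu-2 and 838 to 1286 CPM in Ler. The part of the marker shifts in the histone results was not tested. In RNA from many cells, fewer cells of a type and less RNA per cell cannot be told apart. Among knu-2 libraries, replicate 1 had the highest level of 34 of the 40 tested histone genes, and it also had the highest sum of the meiocyte markers.

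Most histone genes of every class had lower levels in knu-2 than in Ler. By edgeR's quasi-likelihood test, with p adjusted over all 18422 genes tested, 32 of the 40 histone genes were lower in knu-2, 3 were higher and 5 were not called. Over all genes tested, 24.4% were lower and 23.6% were higher (4501 and 4355 genes, or 3499 and 6149 without scaling beyond library totals). The median log2 fold change of the 40 histone genes was -1.16, which is 2.24-fold lower in knu-2, against 0.10 over all genes tested. For 34 of the 40, the highest knu-2 library was below the lowest Ler library, against 29.3% of all genes tested. For 2 the lowest knu-2 library was above the highest Ler library, against 29.8% of all genes tested. Summed over the 44 genes, histone transcripts made up 5141, 3835 and 3543 CPM in knu-2 replicates 1 to 3, against 10725, 9932 and 8298 CPM in Ler replicates 1 to 3. The sum was thus 2.31-fold lower in knu-2, and the highest knu-2 library stayed below the lowest Ler library. Without knu-2 replicate 1, the median log2 fold change of the histone genes was -1.22 and 33 were lower.

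**Figure D1:**
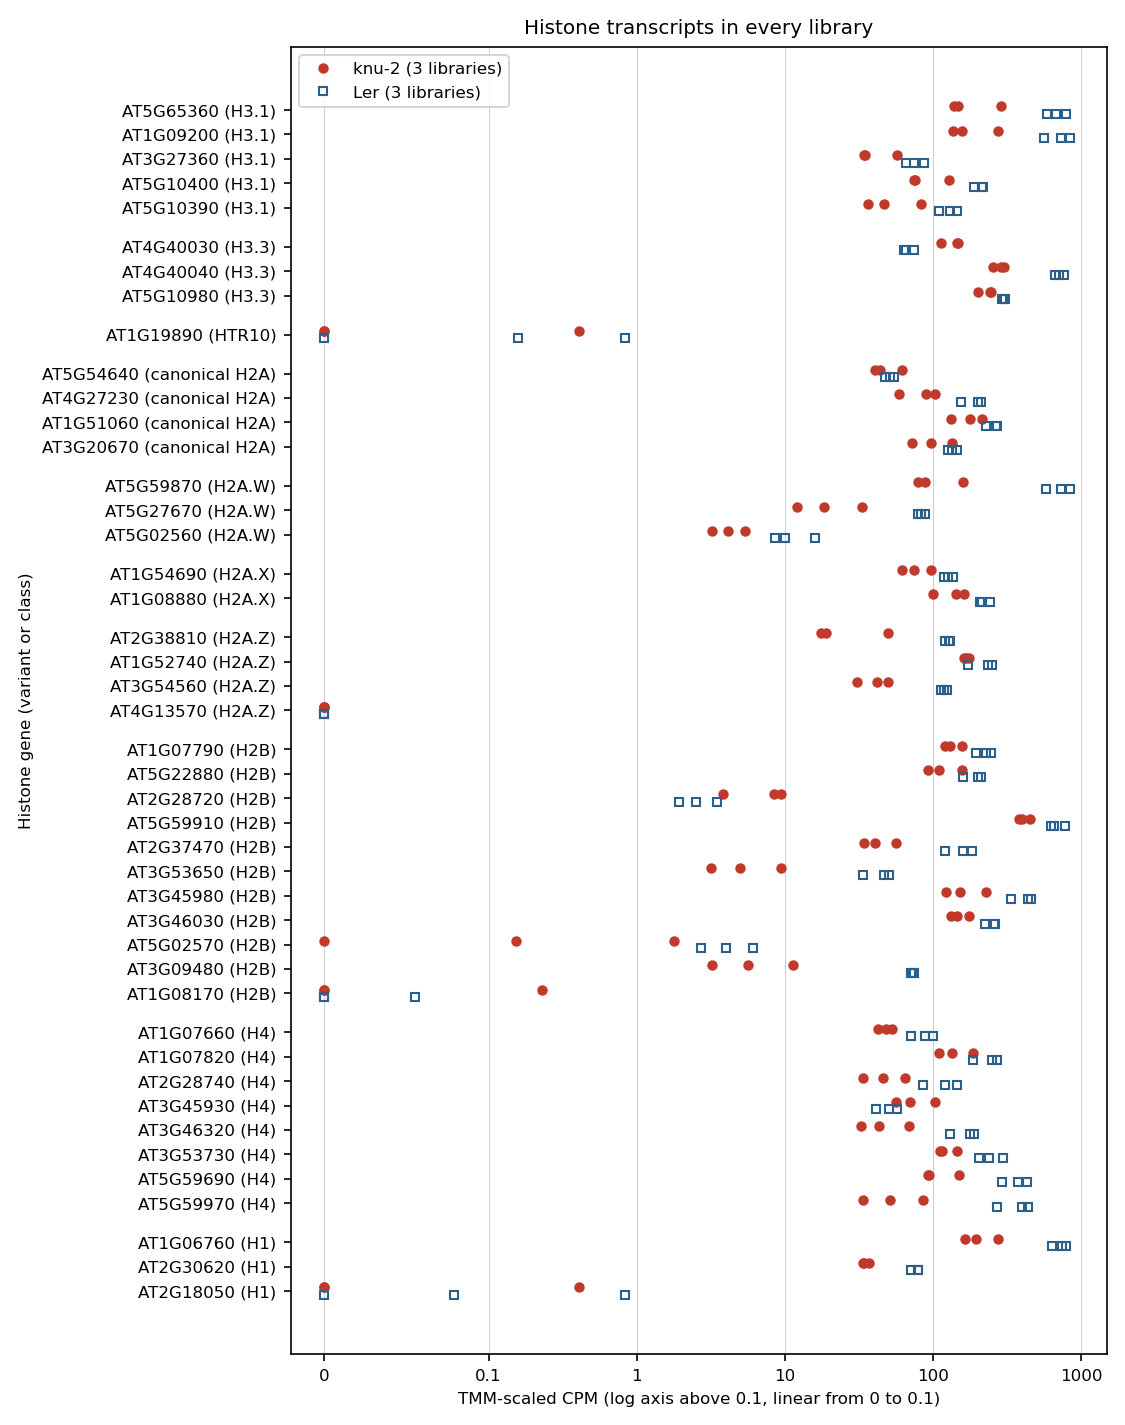
Level of each of the 44 histone genes in every library, as TMM-scaled CPM on an axis that is logarithmic above 0.1 and linear below, with knu-2 as filled red circles and Ler as open blue squares (3 libraries each). For 34 of the 40 tested genes all knu-2 points lie left of all Ler points, and HTR10 (AT1G19890), HTA4 (AT4G13570), AT1G08170 and HIS1-3 (AT2G18050) lie at or near 0.

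All H3.1 genes were lower in knu-2, whereas the H3.3 genes differed among themselves. The 5 H3.1 genes encode identical proteins, as do the 3 H3.3 genes, and the proteins of H3.1 and H3.3 are 97.1% identical in the reference. They differ at 4 codons, which are 31, 41, 87 and 90 when counted without the start codon. The coding stretch around the last 2 of these is shown for the genes with the highest levels and for the H3.3 gene that rose, since these few bases are what tells the variants apart in the nucleosome core. Capitals mark codons 87 and 90, the sequences run 5′ to 3′ along the gene, and the coordinates are those of TAIR10.1.
AT1G09200, H3.1 (chr1:2971848-2971883, minus strand): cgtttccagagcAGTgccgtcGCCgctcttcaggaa
AT5G65360, H3.1 (chr5:26120225-26120260, minus strand): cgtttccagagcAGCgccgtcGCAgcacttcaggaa
AT4G40040, H3.3 (chr4:18557665-18557700, minus strand): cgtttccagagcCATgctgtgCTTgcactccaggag
AT4G40030, H3.3 (chr4:18555966-18556001, minus strand): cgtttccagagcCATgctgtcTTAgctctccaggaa
Both capital codons encode the same residue in all genes of a variant and another residue in the other variant. Coding sequences of the H3.1 genes are 80.3 to 89.5% identical and those of the H3.3 genes 78.6 to 88.8%, so counts of one gene may hold some reads of another where reads fall on shared stretches.

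All 5 H3.1 genes were lower in knu-2, with a median log2 fold change of -1.22. AT5G65360 (chr5:26119859-26120581), the H3.1 gene with the highest level per kb, had 287, 139 and 149 CPM in knu-2 replicates 1 to 3, against 797, 678 and 589 CPM in Ler replicates 1 to 3. Its log2 fold change was -1.85 ± 0.28 (SE, adjusted p = 0.000386). AT1G09200 (chr1:2971571-2972334), the H3.1 gene with the most negative change, had 276, 156 and 136 CPM in knu-2, against 849, 735 and 561 CPM in Ler. It was 3.78-fold lower in knu-2 (log2 fold change -1.92 ± 0.28, adjusted p = 0.000293). In both genes knu-2 replicate 1 stood above the other knu-2 libraries and still under all Ler libraries. The other H3.1 genes, AT5G10390, AT5G10400 and AT3G27360, had log2 fold changes of -1.22, -1.16 and -0.85. AT5G10390 and AT5G10400 lie 577 bases apart on the same strand. Of the exon bases of AT3G27360, 39.4% overlap AT3G27380 on the same strand, so reads there could belong to either gene.

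Of the 3 H3.3 genes, 1 was lower, 1 was higher and 1 was not called. AT4G40040 (chr4:18557149-18558945), the H3.3 gene with the highest level per kb over both genotypes, had 287, 304 and 257 CPM in knu-2, against 708, 769 and 672 CPM in Ler. It was 2.54-fold lower in knu-2 (log2 fold change -1.34 ± 0.16, adjusted p = 5.89e-05). In knu-2 alone, AT5G10980 was higher per kb, at a mean of 281 CPM against 187 CPM for AT4G40040. AT4G40030 (chr4:18555532-18557106) had 114, 148 and 146 CPM in knu-2, against 63.7, 74.6 and 65.4 CPM in Ler. It was higher in all 3 knu-2 libraries than in any Ler library (log2 fold change 1.00 ± 0.17, adjusted p = 0.000529). The pair lies 42 bases apart on the same strand, so that neighbours encoding the same protein had changes of opposite sign. The H3.3 gene AT5G10980 was not called, at a log2 fold change of -0.39 ± 0.15 (adjusted p = 0.0556). Its levels were 203 to 246 CPM in knu-2 and 295 to 308 CPM in Ler. Under 5 of 13 alternatives, which included DESeq2 and limma-voom, AT5G10980 passed the threshold as lower.

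As sums over genes, H3.1 and H3.3 were both lower in knu-2, and H3.3 made up more of the H3 transcripts there. H3.1 summed to 831, 451 and 432 CPM in knu-2 replicates 1 to 3, against 2083, 1850 and 1515 CPM in Ler replicates 1 to 3, which is 3.18-fold lower. H3.3 summed to 647, 694 and 606 CPM in knu-2, against 1074, 1152 and 1032 CPM in Ler, which is 1.67-fold lower. The share of H3.3 in H3 counts was 43.8, 60.6 and 58.4% in knu-2 (54.2 ± 9.14%, SD, n = 3), against 34.0, 38.4 and 40.5% in Ler (37.6 ± 3.31%, SD, n = 3). All 3 knu-2 libraries had a larger share than any Ler library, and knu-2 replicate 1 lay closest to Ler. Per kb of gene length, the shares of H3.3 were 34.4 to 50.5% in knu-2 and 24.2 to 29.8% in Ler, and again did not overlap. With 3 libraries per genotype an exact permutation test of a share cannot give a p below 0.1, so none is given.

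HTR10 (chr1:6904963-6906028), also called MGH3 and known as the H3 of sperm cells, was near 0. It had 0, 0 and 10 counts in knu-2 replicates 1 to 3, against 0, 4 and 15 counts in Ler replicates 1 to 3, and was not tested. The limit that a count of 0 allows, taken as 3 counts, was 0.119 to 0.166 CPM over the libraries. Of H3-like genes outside the 44, HTR12 (CENH3), the H3 of centromeres, had 23.4, 15.3 and 10.5 CPM in knu-2, against 27.9, 31.8 and 25.5 CPM in Ler, and was lower (log2 fold change -0.79 ± 0.28, adjusted p = 0.0353). HTR11 had a log2 fold change of -1.56 and was not called (adjusted p = 0.0520). AT1G13370, AT1G75600 and AT5G12910 had at most 2.04 CPM in any library and were not tested.

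**Figure D2:**
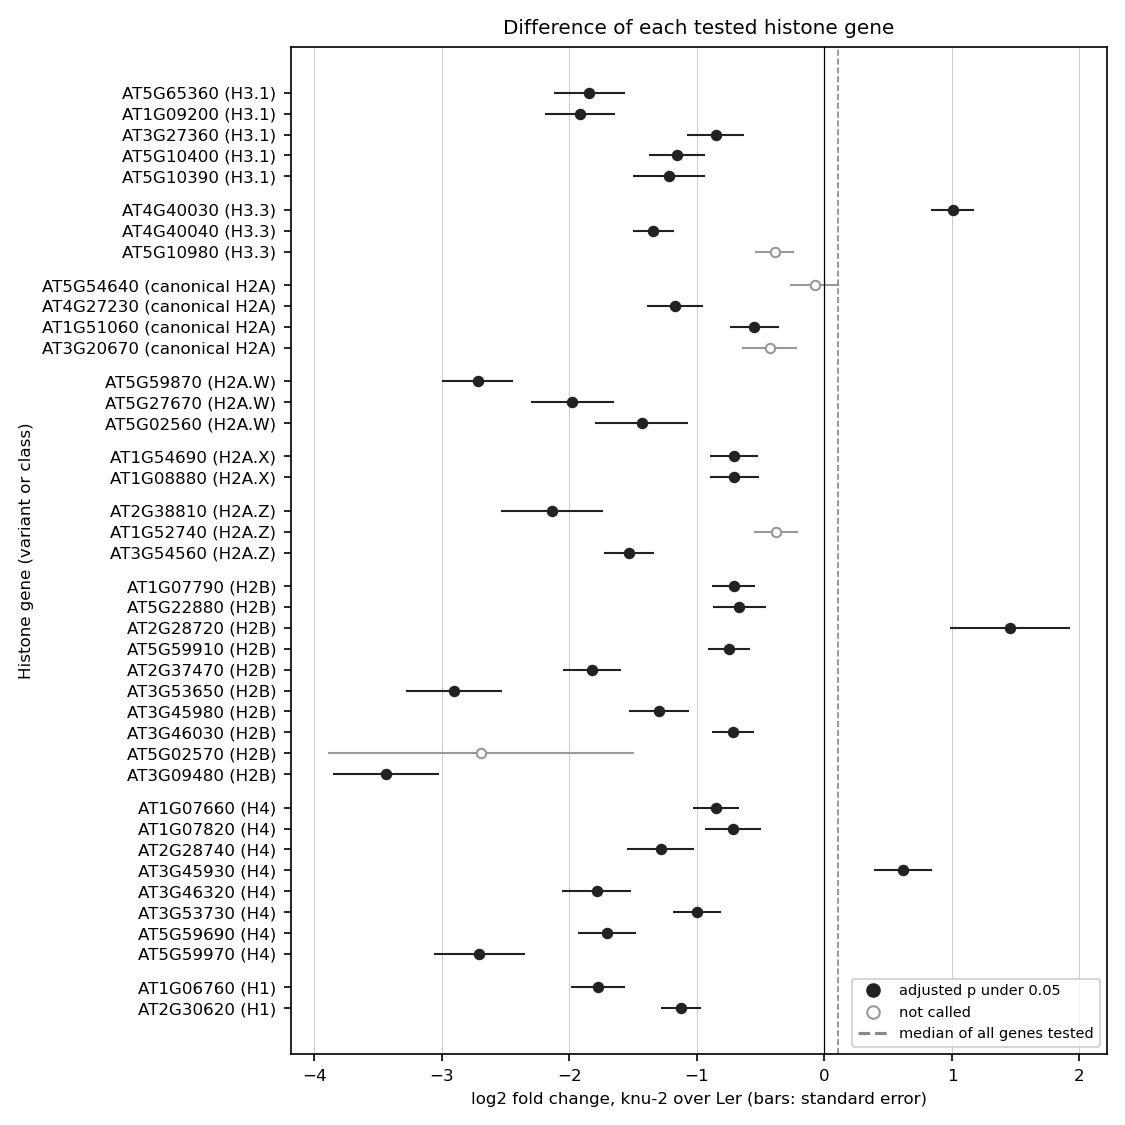
The log2 fold change of knu-2 over Ler for the 40 tested histone genes, grouped by class and variant, with bars of 1 standard error, filled points where the adjusted p was under 0.05 and a dashed line at the median of all genes tested (0.10). Of these genes 32 lie left of 0 with a filled point, while AT4G40030, AT2G28720 and AT3G45930 lie right of it.

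Most H2A genes were lower in knu-2, with median log2 fold changes of -1.98 for H2A.W, -1.53 for H2A.Z, -0.71 for H2A.X and -0.49 for canonical H2A. The differences between variants were not tested. Of 12 H2A genes tested, 9 were lower, none was higher and 3 were not called. The median log2 fold change over the class was -0.94. None was higher by edgeR under any of the alternatives, by DESeq2 or by limma-voom, and the 9 genes with an unadjusted p under 0.05 were the 9 lower ones. Of the variants, H2A.W and H2A.X are marked by a motif at their ends, and the last coding bases before the stop codon show it. They are given for the member with the highest level per kb of each variant.
HTA6, H2A.W (chr5:24115608-24115667, minus strand): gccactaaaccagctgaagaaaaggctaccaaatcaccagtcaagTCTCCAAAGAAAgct
H2AXA, H2A.X (chr1:2847147-2847206, minus strand): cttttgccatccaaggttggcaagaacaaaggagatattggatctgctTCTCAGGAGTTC
HTA9, H2A.Z (chr1:19646159-19646218, plus strand): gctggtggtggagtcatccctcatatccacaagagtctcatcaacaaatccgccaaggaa
HTA10, canonical H2A (chr1:18927381-18927440, plus strand): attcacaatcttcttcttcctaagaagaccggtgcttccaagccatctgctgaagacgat
Capitals in HTA6 mark the codons of the SPKK motif, which was found in 3 of 3 H2A.W proteins and in no other H2A of the list. Capitals in H2AXA mark its last codons, with the serine-glutamine motif that kinases phosphorylate at DNA breaks. It was found in 2 of 2 H2A.X proteins and in no other H2A of the list. The shown ends of HTA9 and HTA10 hold neither motif.

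All 3 H2A.W genes were lower in knu-2. HTA6 (AT5G59870, chr5:24115354-24116220) had 159, 88.6 and 79.3 CPM in knu-2 replicates 1 to 3, against 839.8, 729 and 584 CPM in Ler replicates 1 to 3. It was 6.58-fold lower in knu-2 (log2 fold change -2.72 ± 0.28, adjusted p = 3.73e-05), and its highest knu-2 library lay far below its lowest Ler library. Per kb of length, HTA6 averaged 139.9 CPM in knu-2 and 920.3 CPM in Ler. In Ler, only AT5G65360 and AT1G09200 of the histone genes were higher, at 952 and 936 CPM per kb. HTA7 (AT5G27670) and HTA12 (AT5G02560) had log2 fold changes of -1.98 and -1.43. HTA12 reached 3.21 to 5.43 CPM in knu-2 and 8.54 to 16 CPM in Ler. Of its exon bases, 34.7% lie opposite the H2B gene AT5G02570, so without strand the reads on these bases cannot be told apart from those of AT5G02570. Without Ler replicate 1, HTA12 lost its call (adjusted p = 0.0550).

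Of the 4 canonical H2A genes, 2 were lower and 2 were not called. HTA10 (AT1G51060, chr1:18926811-18927746) had the highest level per kb of the 4, with 215, 177 and 132 CPM in knu-2 and 266, 273 and 227 CPM in Ler (log2 fold change -0.55 ± 0.19, adjusted p = 0.0362). Its groups lay close, and it lost its call under 4 alternatives, namely no scaling beyond library totals and the omission of knu-2 replicate 3, Ler replicate 1 or Ler replicate 2. HTA2 (AT4G27230, chr4:13637236-13638449) had 104, 90.0 and 59.5 CPM in knu-2, against 212, 203 and 154 CPM in Ler, and was lower (log2 fold change -1.17 ± 0.22, adjusted p = 0.00115). HTA13 (AT3G20670) and RAT5 (AT5G54640) were not called and overlapped between genotypes. RAT5 is also called HTA1 and is known from mutants that resist transformation by Agrobacterium. HTA13 had a log2 fold change of -0.43, and passed as lower with the replicate block (-0.47, adjusted p = 0.0453) and without knu-2 replicate 1 (-0.71, adjusted p = 0.00916). RAT5 had a log2 fold change of -0.08, whose sign turned under 3 alternatives.

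Both H2A.X genes were lower by about the same amount, and both encode nearly the same protein (98.6% identical). H2AXA (AT1G08880, chr1:2846894-2848100) had 163, 101 and 144 CPM in knu-2, against 242, 215 and 208 CPM in Ler (log2 fold change -0.71 ± 0.19, adjusted p = 0.0105). GAMMA-H2AX (AT1G54690, chr1:20414316-20415287) had 97.6, 62.1 and 74.7 CPM in knu-2, against 127, 137 and 118 CPM in Ler (log2 fold change -0.71 ± 0.19, adjusted p = 0.00894). In neither gene did the genotypes overlap. Of the exon bases of GAMMA-H2AX, 32.3% lie opposite AT1G54680, and without scaling beyond library totals it lost its call (adjusted p = 0.0593).

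Of the 4 H2A.Z genes 2 were lower, 1 was not called and HTA4 had no count in any library. HTA8 (AT2G38810, chr2:16219220-16220928) had 49.6, 17.6 and 19.0 CPM in knu-2, against 128, 131 and 121 CPM in Ler (log2 fold change -2.14 ± 0.40, adjusted p = 0.00325). Replicate 1 stood well above the other knu-2 libraries of HTA8, and without it the log2 fold change was -2.81. HTA9 (AT1G52740, chr1:19645236-19646485), with the highest level per kb of the 4, had 166, 164 and 177 CPM in knu-2, against 249.6, 236 and 174 CPM in Ler. The genotypes overlapped in HTA9, and it was not called (log2 fold change -0.38 ± 0.17, adjusted p = 0.0935). It passed as lower with DESeq2 (adjusted p = 0.0430) and without Ler replicate 3 (adjusted p = 0.0473). HTA11 (AT3G54560) was lower, at a log2 fold change of -1.53.

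Within H2A transcripts, the share of H2A.W was smaller in knu-2 and those of the other variants were larger. H2A.W held 15.9, 11.7 and 12.1% of H2A counts in knu-2 replicates 1 to 3 (13.2 ± 2.30%, SD, n = 3), against 37.9, 35.2 and 34.4% in Ler replicates 1 to 3 (35.9 ± 1.82%, SD, n = 3). Its sum was 196, 105 and 103 CPM in knu-2, against 945, 817 and 678 CPM in Ler, which is 6.04-fold lower. Canonical H2A held 41.6, 45.4 and 35.7% in knu-2 and 27.1, 28.7 and 28.3% in Ler. H2A.X held 18.1 to 25.7% in knu-2 and 14.8 to 16.5% in Ler, and H2A.Z held 21.5 to 26.6% in knu-2 and 20.1 to 20.9% in Ler. None of these shares overlapped between genotypes. The shares within H2A rest on 1 gene, since without HTA6 those of canonical H2A and H2A.X overlapped between genotypes. Without HTA6, H2A.W held 2.00 to 3.40% in knu-2 and 5.52 to 6.75% in Ler, and H2A.Z turned lower, at 24.7 to 29.3% in knu-2 and 29.5 to 30.5% in Ler.

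**Figure D3:**
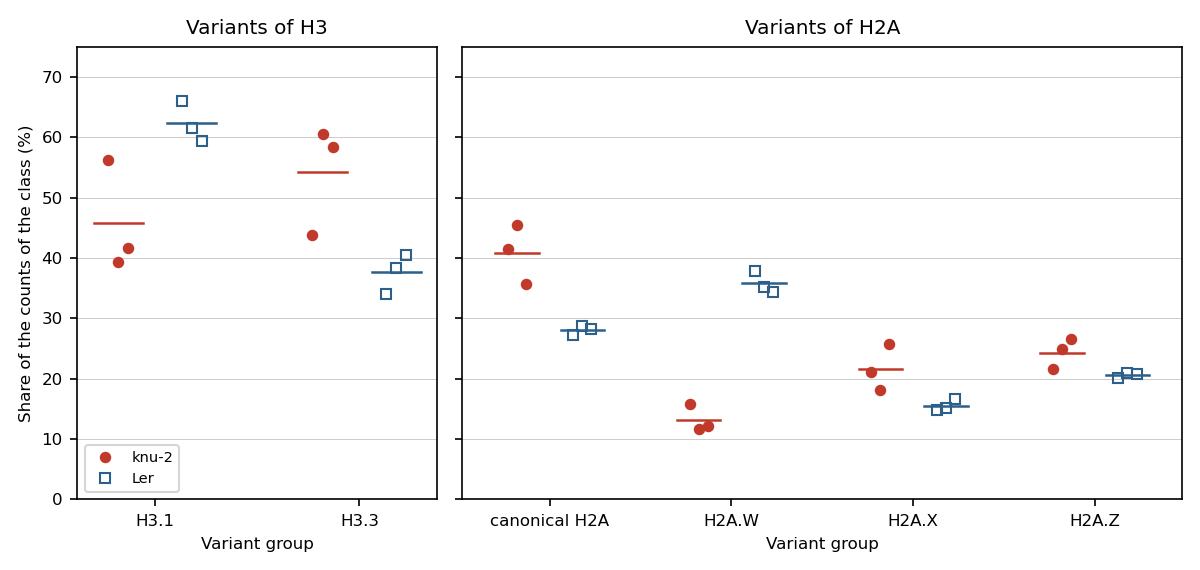
Share of the counts of H3 (left) and of H2A (right) held by each variant, in percent, with 1 point per library, knu-2 as filled red circles left of Ler as open blue squares, and a line at the mean of 3 libraries. H2A.W averages 13.2% in knu-2 and 35.9% in Ler, and H3.3 averages 54.2% in knu-2 and 37.6% in Ler.

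Of the 10 H2B genes tested, 8 were lower, 1 was higher and 1 was not called. Their median log2 fold change was -1.02. None of the 11 H2B genes has an intron in its coding sequence, and no 2 of their proteins are identical. HTB4 (AT5G59910, chr5:24126877-24128162) had the highest level per kb over both genotypes, with 452, 383 and 401 CPM in knu-2, against 783, 659.9 and 629 CPM in Ler (log2 fold change -0.75 ± 0.16, adjusted p = 0.00303). In Ler alone, AT3G45980 was higher per kb, at a mean of 569 CPM against 537 CPM for HTB4. AT3G09480 (chr3:2914701-2915442) had the most negative change of all 40 histone genes, with 11.4, 5.66 and 3.24 CPM in knu-2, against 73.2, 74.9 and 71.1 CPM in Ler. It was 10.8-fold lower in knu-2 (log2 fold change -3.44 ± 0.42, adjusted p = 0.000256), and without knu-2 replicate 1 the log2 fold change was -4.06. In Ler its libraries lay within a few CPM of each other, whereas in knu-2 they spread over more than their own mean. AT2G28720 (chr2:12326808-12327808) was higher, at low levels of 9.49, 8.41 and 3.81 CPM in knu-2, against 2.51, 1.94 and 3.48 CPM in Ler (log2 fold change 1.45 ± 0.47, adjusted p = 0.0242). Its lowest knu-2 library lay just above its highest Ler library, and it lost its call without knu-2 replicate 1 or 2, without Ler replicate 1 or 2, and with a replicate block (adjusted p of 0.0508 to 0.0907).

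The other H2B genes called lower had log2 fold changes of -2.90 to -0.67, and H2B as a whole was 1.94-fold lower. AT3G53650 (-2.90) and AT2G37470 (-1.82) were followed by HTB9 (AT3G45980, -1.30), HTB11 (AT3G46030, -0.72), HTB1 (AT1G07790, -0.71) and HTB2 (AT5G22880, -0.67). HTB2 lost its call under 5 alternatives. AT5G02570 was at 0 to 1.78 CPM in knu-2 and 2.73 to 6.07 CPM in Ler and was not called (log2 fold change -2.69 ± 1.2, adjusted p = 0.0922). All of its exon bases lie opposite an exon of HTA12, and it passed as lower under 4 of the 12 alternatives that kept it. Its log2 fold change was then -5.76 without knu-2 replicate 3 (adjusted p = 0.00305), -4.09 with the replicate block (adjusted p = 0.0296), -4.27 with limma-voom (adjusted p = 0.0330) and -2.79 with DESeq2 (adjusted p = 0.0145). AT1G08170 had 0, 5 and 0 counts in knu-2 replicates 1 to 3, against 0, 0 and 1 counts in Ler replicates 1 to 3, and was not tested. Summed, H2B reached 1259, 960.3 and 938 CPM in knu-2, against 2284, 2077 and 1777 CPM in Ler.

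The 8 H4 genes encode 1 and the same protein, and 7 of them were lower and 1 was higher in knu-2. AT5G59690 (chr5:24051474-24052218), with the highest level per kb, had 149.9, 94.1 and 93.1 CPM in knu-2, against 433, 376 and 293 CPM in Ler (log2 fold change -1.71 ± 0.23, adjusted p = 0.000122). AT5G59970 (chr5:24145831-24146729), with the most negative change, had 85.6, 51.3 and 33.5 CPM in knu-2, against 437, 402 and 272 CPM in Ler. It was 6.53-fold lower (log2 fold change -2.71 ± 0.35, adjusted p = 0.000365), and no knu-2 library came near any Ler library. AT3G45930 (chr3:16883316-16884009) was the H4 gene that rose, with 103, 70.6 and 56.4 CPM in knu-2, against 50.8, 57.7 and 41.6 CPM in Ler. Its genotypes overlapped, the adjusted p was 0.0443 (log2 fold change 0.62 ± 0.23), and the call was lost under 7 of 13 alternatives, with adjusted p of 0.0561 to 0.219. The other 5 H4 genes had log2 fold changes of -1.79 (AT3G46320), -1.28 (HIS4, AT2G28740), -1.0 (AT3G53730), -0.85 (AT1G07660) and -0.72 (AT1G07820), of which AT1G07820 lost its call under 5 alternatives. Summed, H4 reached 858, 598 and 517 CPM in knu-2, against 1925, 1713 and 1287 CPM in Ler, which is 2.50-fold lower.

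Coding sequences of the H4 genes are 78.8 to 98.1% identical, so the split of reads between some of them is uncertain. The likest pairs are AT1G07660 with AT1G07820 (98.1%), AT3G45930 with AT3G46320 (97.4%) and AT5G59690 with AT5G59970 (97.1%). AT3G45930 and AT3G46320 had changes of opposite sign and differ at 8 of 312 coding bases, of which 5 lie in the last 120 bases shown here, in capitals.
AT3G45930 (chr3:16883582-16883701, plus strand): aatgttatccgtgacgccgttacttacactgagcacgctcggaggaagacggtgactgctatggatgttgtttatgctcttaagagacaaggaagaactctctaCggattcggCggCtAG
AT3G46320 (chr3:17020043-17020162, minus strand): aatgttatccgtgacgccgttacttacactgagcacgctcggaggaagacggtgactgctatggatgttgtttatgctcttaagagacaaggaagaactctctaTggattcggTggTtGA
A read that falls on the lower-case stretch cannot be given to 1 of the pair by its letters. AT3G46320 had 68.7, 43.2 and 32.6 CPM in knu-2, against 190.3, 178 and 131 CPM in Ler, and is given in full because of this likeness, after its values were seen. The sources used here do not say how reads that match several genes were counted.

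Both H1 genes that were tested were lower, and H1 had the largest fall of the 5 classes as a sum. AT1G06760 (chr1:2076504-2077767) had 276, 194 and 165 CPM in knu-2, against 796, 741 and 639 CPM in Ler (log2 fold change -1.78 ± 0.21, adjusted p = 5.91e-05). AT2G30620 had a log2 fold change of -1.13, at lower levels, with 34.0 to 36.9 CPM in knu-2 and 71.0 to 79.7 CPM in Ler. HIS1-3, the linker histone known to rise under drought, had 0, 9 and 0 counts in knu-2, against 0, 2 and 15 counts in Ler, and was not tested. The sum of H1 was 310, 232 and 199 CPM in knu-2, against 867, 821 and 719 CPM in Ler, which is 3.25-fold lower, beside 2.50-fold for H4, 2.38-fold for H3, 2.27-fold for H2A and 1.94-fold for H2B. Whether these sums differ from each other in their fall was not tested. Of the exon bases of AT1G06760, 41.8% lie opposite a long non-coding RNA.

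Promoters of the histone genes were searched for 4 motifs known from plant cell cycle genes, on both strands, from 250 bases before to 50 after the annotated start. The octamer CGCGGATC, known from plant histone promoters, was in 10 of 44 histone promoters (22.7%) and in 40 of all 27444 promoters (0.146%). It is shown, in capitals within up to 40 bases, for 6 of the genes above that were lower and for HTA13, which was not called. Where the octamer lies on the other strand, the capitals hold its reverse complement, GATCCGCG.
AT5G65360, H3.1 (chr5:26120684-26120723, minus strand): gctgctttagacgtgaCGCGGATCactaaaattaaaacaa
AT1G09200, H3.1 (chr1:2972401-2972440, minus strand): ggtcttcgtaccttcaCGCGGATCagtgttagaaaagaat
AT4G40040, H3.3 (chr4:18558946-18558978, minus strand): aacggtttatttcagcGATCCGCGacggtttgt
HTA6, H2A.W (chr5:24116313-24116352, minus strand): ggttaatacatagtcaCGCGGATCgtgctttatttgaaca
HTA13, canonical H2A (chr3:7229306-7229345, plus strand): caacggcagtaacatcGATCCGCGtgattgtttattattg
AT5G59690, H4 (chr5:24051387-24051426, plus strand): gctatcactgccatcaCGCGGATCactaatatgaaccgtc
AT1G06760, H1 (chr1:2077772-2077811, minus strand): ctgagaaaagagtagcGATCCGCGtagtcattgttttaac
The matches began at positions -126 to -10 from the annotated start. By class the octamer was in 4 of 9 H3, 3 of 13 H2A, 2 of 8 H4, 1 of 3 H1 and 0 of 11 H2B promoters. Of the 10 genes with it, 9 were lower and HTA13 was not called, and the median log2 fold change of the 10 was -1.53. Of the 30 tested genes without it, 23 were lower and 3 were higher, with a median of -1.06. The shares of lower genes were thus 90% with the octamer and 76.7% without it. Over all tested histone genes the share was 80%, and over all genes tested 24.4%. The difference between genes with and without the octamer was not tested. A match describes the letters in the window and says nothing of binding, and no match says only that these letters are not there. The sequences are those of the Columbia reference, and differences from it in Ler or knu-2 were not examined.

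The hexamer ACGTCA, also known from histone promoters, was in 14 of 44 histone promoters (31.8%), against 9.19% of all promoters, and 9 of the 14 were H2B genes. Of the 13 tested genes with the hexamer, 10 were lower, with a median log2 fold change of -0.75, and of the 27 without it 22 were lower, with a median of -1.28. The core of the mitosis-specific activator site, AACGG, was in 26 histone promoters (59.1%), against 24.7% of all promoters. By class it was in 7 of 9 H3, 6 of 13 H2A, 7 of 11 H2B, 6 of 8 H4 and 0 of 3 H1 promoters. All 5 H3.1 and all 3 H2A.W genes had it, against 2 of 4 canonical H2A, 1 of 4 H2A.Z and 0 of 2 H2A.X genes. Of the 24 tested genes with this core, 20 were lower, with a median of -1.32, and of the 16 without it 12 were lower, with a median of -0.73. With only the 250 bases before the start, the core was in 22 histone promoters (50%), against 20.6% of all promoters. It was then in 4 of 5 H3.1 and 2 of 3 H2A.W promoters. E2F sites, searched as TTTCCCGC, TTTGGCGC, TTTCGCGC and TTTGCCGC together, were in 3 histone promoters (6.82%), against 1.76% of all promoters. The E2F letters TTTCGCGC and the octamer share the letters CGCG and can overlap. Coding introns also told the genes apart, as H3.1, H2B and H4 genes have none. Of 23 tested genes without a coding intron 20 were lower and 2 were higher, with a median of -1.22, and of 17 with one 12 were lower and 1 was higher, with a median of -1.13. Over all tested histone genes 80% were lower, against 24.4% of all genes tested. The differences between genes with and without a motif or an intron were not tested.

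Genes of chaperones that carry histones and of complexes that exchange variants were called in both directions. Of 20 such genes, 8 (40%) were lower, against 24.4% of all genes tested, 6 were higher, against 23.6%, and 6 were not called. The number of higher genes is thus near the background. Their median log2 fold change was -0.0036, against 0.10 over all genes tested. Their summed levels overlapped, at 1916 to 2294 CPM in knu-2 and 2032 to 2164 CPM in Ler. FAS2, a subunit of the assembly factor CAF-1 that brings H3.1 to new DNA, had 72.8, 50.8 and 48.5 CPM in knu-2, against 160, 159 and 146 CPM in Ler (log2 fold change -1.43 ± 0.19, adjusted p = 0.000109). AT4G37210 had 136, 113 and 96.0 CPM in knu-2, against 301, 312 and 277 CPM in Ler (log2 fold change -1.37 ± 0.17, adjusted p = 8.75e-05). NAP1;1, a nucleosome assembly protein that binds H2A and H2B, had 324, 338 and 322 CPM in knu-2, against 176, 153 and 141 CPM in Ler (log2 fold change 1.07 ± 0.16, adjusted p = 0.000225). In none of these did the genotypes overlap.

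The members of single complexes are given next, named after their values were seen. CAF-1 was split, as FAS1 was lower like FAS2, at -1.30, while MSI1, a small subunit that also works in other complexes, was higher, at 1.08. Of factors linked to H3.3, HIRA was higher, at 1.19, and ATRX lower, at -0.71. Of the subunits of the complex that exchanges H2A for H2A.Z, ARP6 and SEF were lower, at -1.07 and -0.69, and PIE1 was not called, at 0.27. AT2G47210, in the same list, was not called either, at -0.06. Both subunits of FACT, which moves nucleosomes out of the way of polymerases, were higher, with SPT16 at 0.54 and SSRP1 at 0.51. ASF1B and NAP1;3 were lower, at -0.77 and -0.57, and NAP1;2 was higher, at 0.94. Without scaling beyond library totals, 5 of the 20 genes were lower and 8 were higher.

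**Figure D4:**
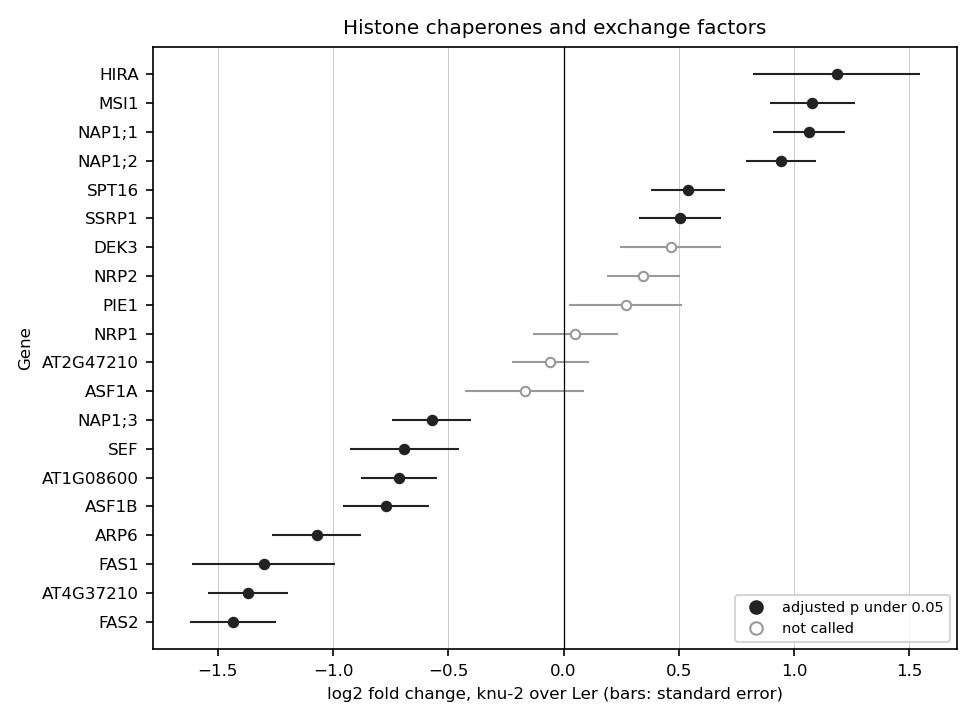
The log2 fold change of knu-2 over Ler for 20 histone chaperones and exchange factors, ordered from the highest to the lowest, with bars of 1 standard error and filled points where the adjusted p was under 0.05. Of these, 6 filled points lie right of 0, with HIRA at 1.19 at the top, and 8 lie left of 0, with FAS2 at -1.43 at the bottom.

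DNA replication genes, whose work in S phase runs beside the making of canonical histones, were lower for 6 of 11 and higher for 1, against 24.4% and 23.6% of all genes tested. Their median log2 fold change was -0.63, against 0.10 over all genes tested. PCNA2, a sliding clamp gene, had 58.6, 28.7 and 36.8 CPM in knu-2, against 235, 238 and 226 CPM in Ler (log2 fold change -2.49 ± 0.25, adjusted p = 2.12e-05). MCM7, called PRL in the reference and part of the replicative helicase, had a log2 fold change of -1.73. RNR2A, a ribonucleotide reductase gene, was higher, with 16.3, 26.2 and 16.9 CPM in knu-2, against 2.29, 4.35 and 2.15 CPM in Ler (log2 fold change 2.75 ± 0.37, adjusted p = 0.000118). Summed, the 11 genes reached 1173, 704 and 782 CPM in knu-2, against 1587, 1480 and 1596 CPM in Ler. The sum was 1.75-fold lower in knu-2, beside 2.31-fold for the histone genes, and the difference of these falls was not tested. Of the 3 genes that read or modify H3.1, TSK, which binds H3.1 after replication, was lower (-1.14), ATXR5, a methyltransferase of H3 lysine 27, was higher (1.38) and ATXR6 was not called (0.26).

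Neighbouring histone genes were compared for the 5 pairs that lie within 10000 bases of each other. AT4G40030 and AT4G40040, described above, had opposite signs at 42 bases apart. AT2G28720 and HIS4 lie 1536 bases apart and also had opposite signs, at 1.45 and -1.28. HTB1 and AT1G07820, at 7298 bases apart, were both lower, at -0.71 and -0.72, and so were AT5G10390 and AT5G10400. HTA12 and AT5G02570 overlap, and HTA12 was lower while AT5G02570 was not called.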

How the data were processed

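Polyadenylated RNA was captured on oligo-T beads and cDNA was primed with random hexamers, per the labels' protocols, in which no strand-marking step is named. Not given in the sources used here were the aligner, the counting tool, the genome build, the strand setting and the treatment of reads matching several genes. The files deposited by the authors hold whole-number counts per gene and library, not normalized as judged from the values, with the gene length in bases beside them. Of 27655 genes, 27445 were found in the TAIR10.1 annotation, and 99.4% of these, with 43 of the 44 histone genes, had exactly its merged exon length. Coordinates and sequences come from TAIR10.1 (RefSeq), and proteins were compared as translations of the lowest-numbered transcript (Biopython 1.88).

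Genes were kept with filterByExpr, which left 18422, and scaled by TMM (factors of 1.06 to 1.21 for knu-2 and 0.870 to 0.914 for Ler). A robust quasi-likelihood model was fitted over all 6 libraries in edgeR 4.0.16 (R 4.3.3), with genotype as its only term. A gene was called, as higher or lower, at a Benjamini-Hochberg adjusted p under 0.05 over all genes tested. All single-gene p-values come from that model unless another is named. Errors of log2 fold changes are approximate standard errors, the absolute log2 fold change divided by the square root of the test's F value. Limits for a count of 0 cover counting error only. As alternatives, the fit was repeated with a replicate block, with DESeq2 size factors, without scaling, with DESeq2 1.42.0, with limma-voom (limma 3.58.1), with 2 other filters on low counts and without each library. The fits were also run on simulated counts with 200 changed genes. Far more genes were called in the data (4501 lower and 4355 higher), so that simulation cannot check the scaling used here.

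The histone genes, the other lists and the motifs were chosen with earlier results of these data known. Values per library were given for HTR10, and in each variant for the gene with the highest CPM per kb and the called genes with the lowest and highest log2 fold change. The level per kb was ranked on its average over both genotypes. Per other list, the 3 called genes with the smallest adjusted p were named. The labels call the libraries biological replicates without naming separate plants, so the spread behind each p is the one between these collections. No library was a copy of another, as within a genotype the lowest chi-square per degree of freedom was 20.3.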

Additional observations from a re-analysis of the deposited data

How the results depend on the processing

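Of 519 alternative values for single histone genes, 474 kept their direction and their side of the threshold, 29 kept the direction without passing it, 13 newly passed it and 3 changed sign. The 3 sign changes were those of RAT5, which was not called, at 0.24 without scaling, 0.0086 with only genes of 5 CPM or more and -0.30 to 0.034 when 1 library was left out (0.034 without knu-2 replicate 3). The count of lower histone genes, 32, was 27 without scaling, 35 with DESeq2, 34 with the replicate block and 28 to 33 when 1 library was left out. The count of higher histone genes, 3, was 1 to 3 when 1 library was left out. Of these, the count for H2B, 1, was 0 with the replicate block and 0 to 1 when 1 library was left out, and the count for H4, 1, was 0 with DESeq2 or its size factors and 0 to 1 when 1 library was left out. Chaperones that were lower numbered 8, and 5 without scaling. The cause of these changes was not tested. Leaving out scaling moved the median log2 fold change of all genes by 0.32, and that of the histone genes was then -0.85. Without HTA6, the share of H2A.W in H2A counts in knu-2 minus that in Ler was -3.38 percentage points instead of -22.7, and that of H2A.Z was -2.94 instead of 3.72. No pairing of the libraries by replicate number was seen. Deviations from the genotype means of libraries with the same number correlated at -0.12, 0.10 and 0.05, and not every library correlated best with its own number. With 3 libraries per genotype, these values cannot tell whether the libraries were collected in pairs. The octamer was in 22.7% of histone promoters also when the 250 bases before the start were searched alone. AACGG was then in 50% instead of 59.1%, and the hexamer in 27.3% instead of 31.8%. HTR10, AT1G08170 and HIS1-3, with at most 15 counts in any library, were removed by the filter and not tested.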

Other observations

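The order of the libraries was shared by many histone genes. Among the knu-2 libraries, replicate 1 was the highest in 34 of the 40 tested histone genes and replicate 3 the lowest in 26. Among the Ler libraries, replicate 1 was the highest in 27 of the 40, replicate 2 in 11 and replicate 3 in 2.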
